A study of Mus musculus with 24 samples.

Results

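The genes described here are 10 transcripts that mark the endothelium of blood vessels, namely Ecscr, Cldn5, Pecam1, Flt1, Tek, Cdh5, Slco1a4, Ly6c1, Kdr and Esam. They are 10 of the 24079 genes in the count table, and all 10 had reads. Ecscr was chosen by its read counts in whole lysates of the nucleus accumbens (Acb), where the genotypes differ, and the other 9 members were chosen by symbol as endothelial genes to set beside it. The levels of Ecscr in whole Acb lysates are therefore given as a description, with no test, and the question asked of the rest is whether Ecscr moves with the other endothelial genes.

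RNA of the Acb and of the dorsal striatum (DS) was sequenced from rpS6P-/- knockin mice, in which every phosphorylatable serine of ribosomal protein S6 is replaced by alanine in all cells of the body, and from their wild-type littermates. For each region and genotype, total cytosolic RNA of the whole lysate and RNA of the heavy polysomal fractions, which hold mRNAs bound by more than 4 ribosomes, were sequenced in 3 replicates, which gives 8 groups and 24 libraries. Each replicate was a pool of mice on a mixed C57Bl/6/Sv129/ICR background, so p-values measure the spread between pools. Male and female mice were used, but the methods do not give the sexes within a pool, and no age is given in the sources used here. Libraries held between 9280589 and 34703044 reads assigned to genes (median 16678553).

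Endothelial cells line every vessel of the brain and form the blood-brain barrier. Neighbouring cells are sealed by tight junctions, held together by adherens junctions and adhesion molecules, and kept quiescent or made to sprout by receptors for vascular endothelial growth factor and angiopoietins, while a set of carriers moves nutrients and organic anions across the wall. In striatal tissue these cells are a small minority among neurons and glia, so their transcripts make up a small part of a bulk library, and in bulk RNA fewer cells of a type and less RNA per cell cannot be told apart.

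The members fall into 4 roles. Ecscr codes for a small membrane glycoprotein that binds filamin and bears on endothelial migration and apoptosis. Cldn5 (the main claudin of the barrier's tight junctions), Cdh5 (VE-cadherin of adherens junctions), Pecam1 (CD31, a homophilic adhesion molecule) and Esam (an adhesion molecule at tight junctions) hold cells together. Kdr and Flt1 are receptors for vascular endothelial growth factor, the first the main signalling receptor and the second a high-affinity decoy, and Tek is the angiopoietin receptor Tie2. Slco1a4 is an organic anion carrier of the barrier, and Ly6c1 is a surface antigen attached to the membrane through a lipid anchor.

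On GRCm38.p6, Esam lies at chr9:37528089-37538319 and Cldn5 at chr16:18776847-18778262, both on the plus strand with no overlapping gene. Slco1a4 is at chr6:141805438-141856284 on the minus strand and Ly6c1 at chr15:75044018-75048920 on the minus strand. Tek is on the same chromosome as Rps6, the targeted gene, at a distance of 7.88 Mb, and the counts hold no alleles of either gene.

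Reads of 50 bases can be assigned to a gene only where its sequence is its own. For Ecscr, Cldn5, Pecam1, Tek, Cdh5, Kdr and Esam, none of the windows of 50 bases along the transcripts also occurred in a transcript of another gene. For Ly6c1, 28.0% of the 1499 windows occurred elsewhere, most of them in its neighbour Ly6c2, so its counts are uncertain. The coding sequences of Ly6c1 and Ly6c2 that have the same length of 396 bases differ at 9 of them, and these windows (from GENCODE M21 on GRCm38, minus strand, 5′ to 3′, with the bases that differ in capitals) show where a read can and cannot tell them apart. In exon 2, over coding bases 1 to 50, the window that starts the coding sequence holds 5 of the 9 differences.
Ly6c1 at chr15:75048462-75048511: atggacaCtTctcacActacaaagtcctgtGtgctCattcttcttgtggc
Ly6c2 at chr15:75111618-75111667: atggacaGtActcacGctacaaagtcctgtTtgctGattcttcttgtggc
In exon 3, over coding bases 71 to 120, the same letters stand in both genes (chr15:75047420-75047469 and chr15:75110578-75110627), and a read from there has no single origin.
Ly6c1 and Ly6c2, exon 3: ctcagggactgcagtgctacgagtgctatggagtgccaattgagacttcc
For Slco1a4 the share of such windows was 2.73%, most of them in Slco1a5, and for Flt1 it was 0.137%.

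All members were weakly represented. Levels are given as CPM, the reads of a gene per 1000000 assigned reads after TMM scaling (trimmed mean of M values). Divided by transcript length, the mean level over the 24 libraries was highest for Esam at 1.96 ± 1.07 CPM per kilobase (SD, n = 24). Ly6c1 followed at 1.68 ± 1.08, Cldn5 at 1.60 ± 0.794, Ecscr at 1.34 ± 1.11 and Slco1a4 at 0.877 ± 0.623. The junction and adhesion genes thus did not share one level, since Pecam1 stood at 0.336 ± 0.251 and Cdh5 at 0.0848 ± 0.133 CPM per kilobase. The 3 receptors lay between 0.111 and 0.134 CPM per kilobase. In mean CPM without regard to length, between 14.7% (Cdh5) and 33.7% (Esam) of the genes with at least 15 reads lay below a member.

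At this depth, single libraries often held no read of a member. Of the 240 values of the 10 members in 24 libraries, 24 were 0 reads, and these fell on Cdh5 (8 libraries), Tek (6), Kdr (4), Ecscr (3), Flt1 (2) and Pecam1 (1). A library at 0 could stand beside a replicate of the same group with many reads. In wild-type Acb lysates, Kdr had 41, 27 and 0 reads in replicates 1 to 3 and Tek had 8, 25 and 0. Of the 80 combinations of a member and a group, 5 (6.25%) held both a library at 0 and one with at least 20 reads, all of them receptors, against 9.44% for the 3473 genes with mean reads in the members' range. Within groups, the variance of the members' reads was between 4.43 (Kdr) and 14.9 (Slco1a4) times that of counting alone, with a median of 7.44, beside 8.69 for the same 3473 genes. Intervals from counting error alone would therefore be too narrow for these genes.

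Ecscr lies at chr18:35713086-35722413 on the minus strand (GRCm38.p6), where the gene 1700066B19Rik overlaps it on the other strand, and reads were counted by strand. In the 3 wild-type whole lysates of the Acb it had 25, 37 and 40 reads, and in the rpS6P-/- ones 0, 0 and 0. The groups did not overlap. A value of 0 among 3 libraries with 34004231 assigned reads in all sets a limit from counting error only. With 3 reads per library as that limit, it lay 10.5-fold below the wild-type mean of 3.06 ± 1.73 CPM (SD, n = 3). The lowest wild-type library stood at 1.36 CPM, and within groups the variance of Ecscr reads was 9.20 times that of counting. The 10.5-fold is therefore not a firm minimum. Among 11731 genes with at least 20 reads in each wild-type library, 44 were at 0 in at least 1 rpS6P-/- library and Ecscr alone was at 0 in all 3. In the opposite direction, 0 of 11518 genes showed this pattern, and no gene did in heavy fractions of the Acb, in DS lysates or in heavy fractions of the DS. Since Ecscr was chosen on these Acb lysates, the counts describe that choice and lend it no support.

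The same pools gave Ecscr reads once the heavy polysomal fractions were sequenced. In the Acb these held 95, 45 and 84 reads in wild-type mice and 9, 50 and 30 in rpS6P-/- mice. All 3 rpS6P-/- libraries lay below all wild-type libraries in CPM, with means of 1.11 ± 0.488 and 2.63 ± 0.437. Replicates 1, 2 and 3 of the rpS6P-/- mice thus had 9, 50 and 30 reads in the heavy fraction and 0 in the lysate of the same number. The difference between genotypes in heavy Acb fractions was -1.19 ± 0.50 on the log2 scale (SE), and edgeR's adjusted p was 0.184, so it was not past the threshold of 0.05 (unadjusted p = 0.0287). There, 21.7% of all genes had an unadjusted p under 0.05 and 0% an adjusted one. DESeq2 called 951 of them but gave no member an adjusted p, and with the trend on transcript length removed the value for Ecscr was -0.83 (adjusted p = 0.402). The same pools gave the lysates on which Ecscr was chosen, so the test is not independent of that choice.

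In the DS, Ecscr had 19, 10 and 11 reads in wild-type lysates and 1, 23 and 23 in rpS6P-/- lysates. Heavy fractions of the DS held 38, 15 and 23 reads in wild-type mice and 31, 4 and 50 in rpS6P-/- mice. Groups overlapped in both, and 2 rpS6P-/- libraries were nearly empty of Ecscr beside their replicates. The log2 differences between genotypes were 0.16 ± 1.34 in lysates and -0.33 ± 1.01 in heavy fractions, with edgeR's adjusted p of 0.989 in each. The 12 DS libraries also gave no call for the interaction of genotype and fraction (-0.52 ± 1.63 on the log2 scale, adjusted p = 1).

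Ordered by mean level, Ecscr ran from 3.06 CPM in wild-type Acb lysates through 2.63 ± 0.437 in wild-type heavy Acb fractions, 1.81 ± 1.43 in wild-type heavy DS fractions and 1.42 ± 1.13 in rpS6P-/- heavy DS fractions. Then came rpS6P-/- heavy Acb fractions at 1.11 ± 0.488, rpS6P-/- DS lysates at 0.998 ± 0.817 and wild-type DS lysates at 0.883 ± 0.177 CPM. Each of these neighbours overlapped with the next, and the only gap in the order lay between wild-type DS lysates and rpS6P-/- Acb lysates at 0.

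The other 9 members summed did not follow that order. Their summed level was highest where Ecscr was at 0, with 19.6 ± 3.59 CPM in rpS6P-/- Acb lysates, against 16.9 ± 9.69 CPM in wild-type ones (SD, n = 3). The set did not move as one, since 4 of the 9 were higher in the rpS6P-/- lysates and 5 lower. The largest differences in CPM were those of Slco1a4 (6.47 ± 4.78 against 4.54 ± 2.37) and Ly6c1 (4.53 ± 0.897 against 1.92 ± 1.45). The counts of Ly6c1 are uncertain. In reads, the sum was 239, 150 and 227 in the rpS6P-/- Acb lysates and 264, 342 and 73 in the wild-type ones. The wild-type lysate with the most Ecscr for its depth, replicate 3 with 40 reads, thus held the fewest reads of the other 9. Expressed as a share, Ecscr amounted to 9.47%, 10.8% and 54.8% of the reads of the other 9 in wild-type Acb lysates. Across the 8 groups, the mean sum ranged only from 13 ± 0.988 (rpS6P-/- heavy Acb fractions) to 19.6 CPM, and every neighbour in that order overlapped with the next. Among heavy libraries the sum was highest in one nearly empty of Ecscr, since replicate 2 of the rpS6P-/- heavy DS fractions held 4 reads of Ecscr and 682 of the others (23.7 CPM).

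**Figure D1:**
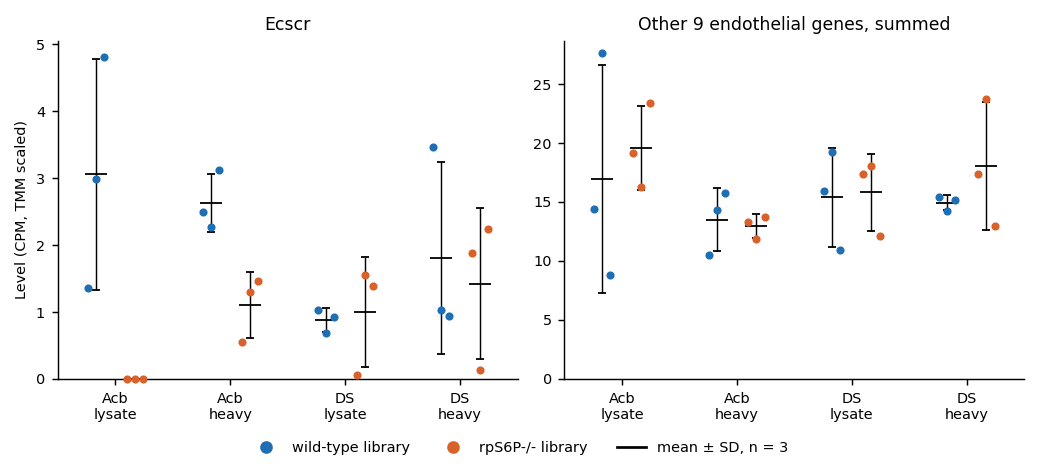
Level of Ecscr (left) and summed level of the other 9 endothelial genes (right) in CPM scaled by TMM, by region and fraction, with a point for each library and the mean ± SD of 3 libraries in black. The 3 rpS6P-/- Acb lysates sit at 0 for Ecscr and between 16.3 and 23.4 CPM for the sum.

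Between genotypes, edgeR called none of the members it tested. In whole Acb lysates, 9 members were tested, 4 with a positive and 5 with a negative log2 difference, and 0 were called by edgeR or by DESeq2, with 0 at an unadjusted p under 0.05. Their median was -0.29, beside -0.00036 for all genes, of which 0.0065% were called. Here and throughout, groups without overlap are given as a description only. No share over all genes stands beside them, so how unusual such a gap is cannot be judged. Ly6c1 was the 1 of the 9 members whose groups did not overlap, with 31, 43 and 5 reads in wild-type and 49, 38 and 54 in rpS6P-/- lysates (1.92 ± 1.45 and 4.53 ± 0.897 CPM). Its log2 difference was 1.21 ± 0.76 (SE) with an adjusted p of 1, and its counts are uncertain because of the sequence it shares with Ly6c2.

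Slco1a4, the carrier, had wide ranges within both genotypes in Acb lysates, with 69, 89 and 22 reads in wild-type mice and 21, 60 and 109 in rpS6P-/- mice. Flt1 had 3, 42 and 13 reads against 58, 4 and 19. Both genes overlapped between genotypes. For the receptors Kdr and Tek and the adhesion genes Cldn5, Pecam1 and Esam the log2 differences were negative and lay between -1.85 ± 1.62 (Kdr) and -0.29 ± 1.16 (Cldn5). Cdh5 had 1 read in the 3 wild-type lysates and 14 in the rpS6P-/- ones, all 14 in replicate 1.

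In heavy fractions of the Acb, 10 members were tested, 5 in each direction, with 0 called by edgeR where 0% of all genes were and 1 (Ecscr) at an unadjusted p under 0.05. The median was -0.12 over the members and -0.0088 over all genes. Esam had 93, 58 and 74 reads in wild-type and 44, 107 and 57 in rpS6P-/- mice. That is 2.70 ± 0.248 and 2.76 ± 0.0563 CPM, and the log2 difference was 0.07 ± 0.36. Cldn5 had 92, 53 and 66 reads against 53, 109 and 51, and a log2 difference of 0.22 ± 0.37. Besides Ecscr, the groups of Tek and Cdh5 did not overlap, with the higher levels in rpS6P-/- mice, though neither passed the threshold. Tek had 18, 0 and 15 reads in wild-type and 20, 26 and 25 in rpS6P-/- mice (log2 difference 1.59 ± 1.05, adjusted p = 0.394), and Cdh5 had 5, 2 and 0 against 3, 8 and 9 (1.80 ± 1.59, adjusted p = 0.545).

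In DS lysates 8 of 10 members had a positive log2 difference and in heavy DS fractions 7 of 10. Medians were 0.39 and 0.51, against -0.0031 and 0.030 over all genes, and 0 members were called by edgeR in either, where 0.122% and 0.044% of all genes were. Lists of other markers went both ways in the DS, with 0 of their genes called by edgeR. The 12 fibroblast and meningeal genes had medians of 0.80 in DS lysates (10 positive) and 0.59 in heavy DS fractions (11 positive), and 12 of 15 pericyte and smooth muscle genes were positive in DS lysates (median 0.49) and 9 of 15 in heavy DS fractions (median 0.034). In DS lysates, medians were negative for genes of the choroid plexus (-0.39, 1 of 6 positive), oligodendrocytes (-0.056, 4 of 11), endothelial ligands (-0.27, 4 of 15) and endothelial transcription factors (-0.16, 7 of 17). In heavy DS fractions they were negative for endothelial transcription factors (-0.20, 7 of 16) and ligands (-0.0016, 8 of 17). All other lists had positive medians. The part of these lists in the members' values was not tested. DESeq2 gave no member an adjusted p there, and in heavy DS fractions 0 members had an unadjusted p under 0.05. Esam was the 1 with such a p in DS lysates, with 87, 105 and 73 reads in wild-type and 57, 59 and 32 in rpS6P-/- mice. Its groups did not overlap (6.04 ± 1.25 and 3.11 ± 1.06 CPM), and its log2 difference was -0.98 ± 0.47 with an adjusted p of 0.541. In heavy DS fractions its log2 difference was 0.70 ± 0.47 (adjusted p = 0.849), with 18, 72 and 135 reads against 112, 251 and 94.

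Members with few reads gave the largest and least certain values in the DS. Pecam1 had 4, 4 and 0 reads in wild-type DS lysates and 38, 13 and 11 in rpS6P-/- ones, a log2 difference of 2.84 ± 1.68 (adjusted p = 0.625). Cdh5 had 5, 8 and 1 reads there against 13, 34 and 16 (2.09 ± 1.49, adjusted p = 0.735). In heavy DS fractions Kdr had 0, 0 and 7 reads in wild-type and 15, 26 and 28 in rpS6P-/- mice, a log2 difference of 3.19 ± 1.88 with an adjusted p of 0.811. Groups did not overlap for any of these 3, and none passed the threshold.

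**Figure D2:**
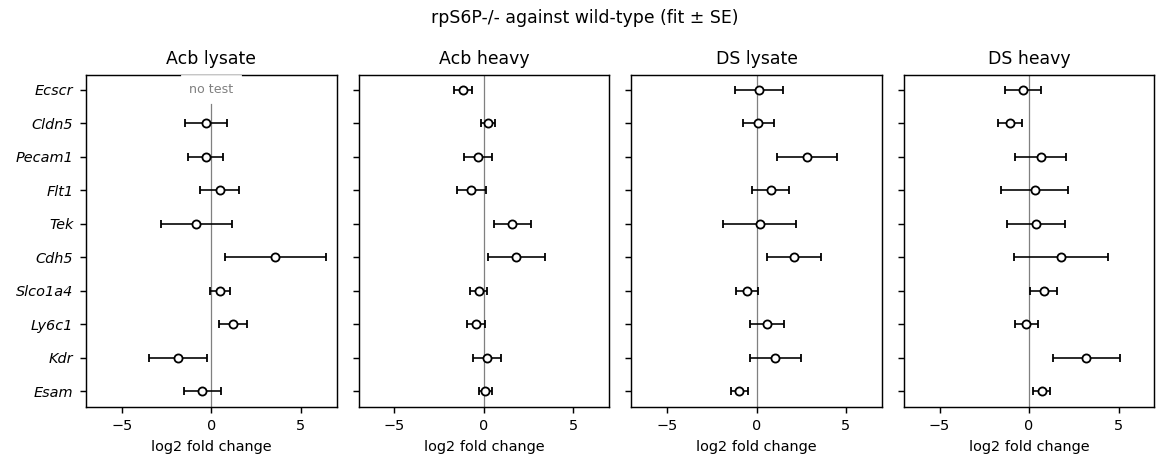
Log2 fold change of rpS6P-/- against wild-type libraries for each member (points, edgeR fit) with its SE (bars) in the 4 combinations of region and fraction. Ecscr has no test in Acb lysates, open points mark adjusted p values of 0.05 or more, and no point is filled.

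The interaction of genotype and fraction asks whether the step from lysate to heavy polysomes differs between genotypes, which is translational efficiency as a ratio. edgeR called 0 of 9 members in the Acb and 0 of 10 in the DS, with 0% of all genes called in both, and 0 and 1 members had an unadjusted p under 0.05. DESeq2 called 0 of 10 members in the DS and gave none an adjusted p in the Acb. That 1 member was Esam in the DS (log2 interaction 1.65 ± 0.68, unadjusted p = 0.0191, adjusted p = 1).

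The plots of single members show where values scatter and where they hold together. Esam was close to the same level in the 6 heavy Acb libraries and scattered in the DS, and Slco1a4, Flt1 and Tek spread over most of their range within single groups.

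**Figure D3:**
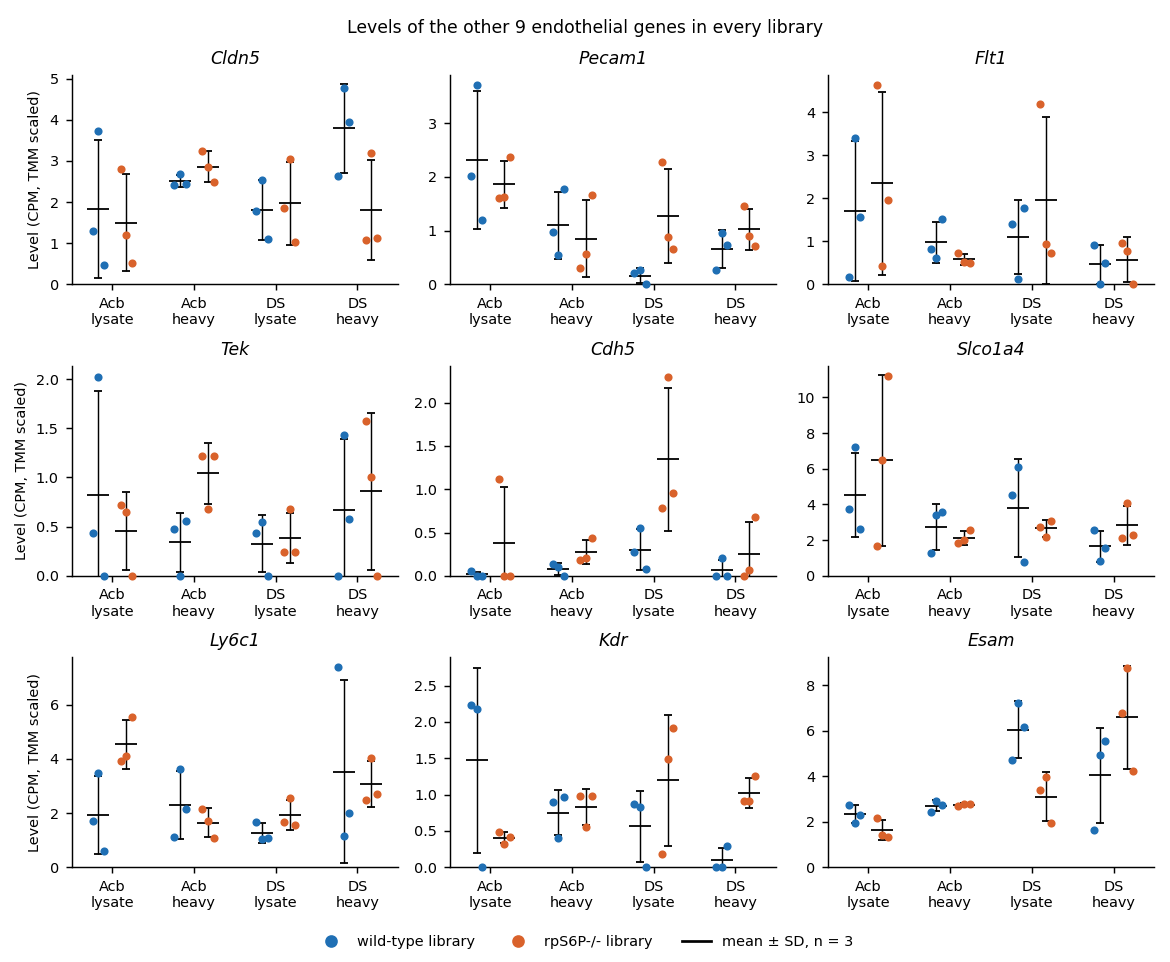
Level in CPM (TMM scaled) of the other 9 members by region and fraction, with a point for each library, blue for wild-type and orange for rpS6P-/- mice, and the mean ± SD of 3 libraries in black. Esam lies between 2.44 and 2.93 CPM in all 6 heavy Acb libraries, while 11.2 CPM of Slco1a4 comes from 1 rpS6P-/- Acb lysate beside 1.68 CPM in another.

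Heavy fractions were then compared with the lysates of the same region and genotype, without pairing of replicates unless a replicate block is named. The values are shares of each library and not amounts of RNA. In wild-type Acb, edgeR called 0 of 8 members, where 25.9% of all genes were called (Cdh5 had under 15 reads and Ecscr took no test). In wild-type DS it called 0 of 10 with 24.3% of all genes called, in rpS6P-/- DS 0 of 10 with 28.6%, and in rpS6P-/- Acb 1 of 9 with 17.2%. The count of members lay below the share of all genes in each comparison, but the members averaged only 5.79 (Cdh5) to 69.75 (Esam) reads. No share was taken over genes with as few reads, so these counts are not read as a result about the members. Members with an unadjusted p under 0.05 numbered 0 in wild-type Acb, 0 in wild-type DS, 1 in rpS6P-/- DS and 2 in rpS6P-/- Acb. DESeq2 called 0 members in wild-type Acb and in the DS of either genotype.

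The member called in rpS6P-/- Acb was Slco1a4, with 21, 60 and 109 reads in lysates and 30, 76 and 53 in heavy fractions. Its levels were 6.47 ± 4.78 and 2.14 ± 0.399 CPM and the libraries overlapped. The log2 difference was -1.61 ± 0.56 with an adjusted p of 0.0476. The call was lost with any but 1 of the 6 libraries left out (adjusted p from 0.0756 to 0.330, the last without lysate replicate 3, where the difference was -0.96), and stood without lysate replicate 1 (0.00850). It was also lost with filterByExpr (0.0521) and with all 24 libraries in one fit (0.0822), and with lysate and heavy fraction paired by a replicate block it was -1.32 (adjusted p = 0.0965). The choroid plexus, which also expresses Slco1a4, had summed markers of 62.1 to 68.0 CPM in these heavy fractions and 52.9 to 63.9 in the lysates, and its part in the result was not tested.

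Ly6c1 in rpS6P-/- Acb had 49, 38 and 54 reads in lysates and 35, 65 and 22 in heavy fractions. In CPM the groups did not overlap (4.53 ± 0.897 and 1.64 ± 0.535), and the log2 difference was -1.5 ± 0.59 with an adjusted p of 0.0796. The call was made by DESeq2 (-1.52, adjusted p = 0.0324) and after removal of a transcript length trend (-1.77, adjusted p = 0.0391). In rpS6P-/- DS, Esam had 112, 251 and 94 reads in heavy fractions and 57, 59 and 32 in lysates. These libraries did not overlap in CPM either (log2 difference 1.05 ± 0.47, adjusted p = 0.087).

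Ecscr in the DS had log2 differences between heavy fraction and lysate of 1.02 ± 1.14 in wild-type mice (adjusted p = 0.592) and 0.47 ± 1.22 in rpS6P-/- mice (adjusted p = 0.833). Cldn5, by comparison, had 33, 37 and 13 reads in wild-type DS lysates and 29, 70 and 96 in heavy fractions, a difference of 1.06 ± 0.67 (adjusted p = 0.278) without overlap. In the wild-type Acb, where Ecscr takes no test, its lysates held 3.06 ± 1.73 and its heavy fractions 2.63 ± 0.437 CPM, and they overlapped. Flt1 had a negative value in every one of the 4 comparisons, with log2 differences from -2.04 ± 1.0 to -0.84 ± 1.02, none of them past the threshold. Over the members tested, medians were -0.82 (wild-type Acb), -0.48 (rpS6P-/- Acb), 0.22 (wild-type DS) and -0.05 (rpS6P-/- DS), with all genes between 0.0010 and 0.030.

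**Figure D4:**
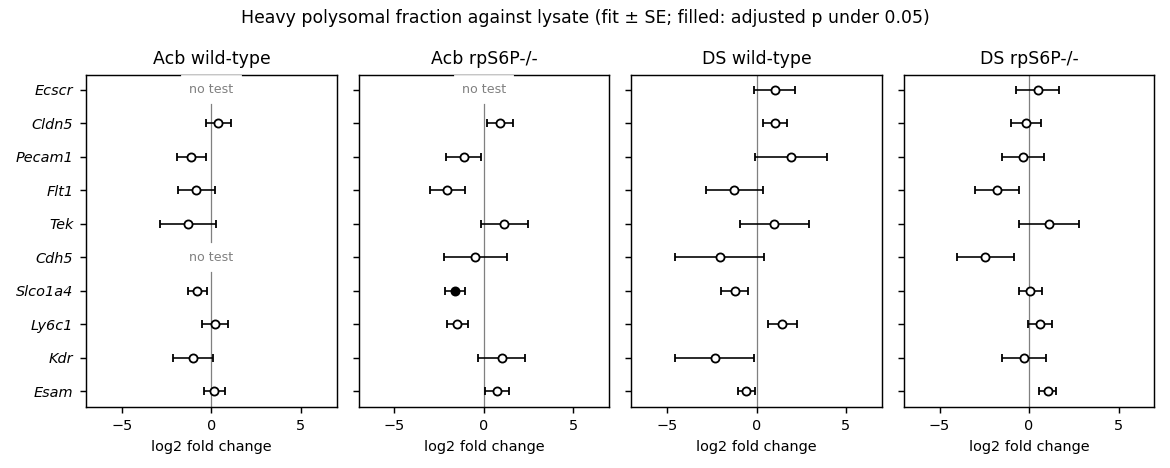
Log2 fold change of heavy polysomal fractions against whole lysates for each member (points, edgeR fit) with its SE (bars), by region and genotype. The 1 filled point, Slco1a4 in rpS6P-/- Acb at -1.61, had an adjusted p under 0.05.

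Between regions, Esam was the member with a call, lower in the Acb than in the DS. In rpS6P-/- heavy fractions it had 44, 107 and 57 reads in the Acb and 112, 251 and 94 in the DS. The levels were 2.76 ± 0.0563 and 6.58 ± 2.26 CPM without overlap, and the log2 difference was -1.24 ± 0.38 with an adjusted p of 0.0276. It was the only one of 10 members called there, where 18.6% of all genes were called. The call was lost with each of 5 of the 6 libraries left out (adjusted p from 0.0546 to 0.121, the last without replicate 2 of the rpS6P-/- DS, where the difference was -0.99), stood without replicate 3 of the DS (0.00922), and was lost with all 24 libraries in one fit (0.0725).

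For Esam the other region comparisons pointed the same way without passing the threshold. In wild-type lysates it had 50, 24 and 19 reads in the Acb and 87, 105 and 73 in the DS, with no overlap (log2 difference -1.34 ± 0.54, adjusted p = 0.101). The differences were -0.58 ± 0.52 in wild-type heavy fractions (adjusted p = 0.586) and -0.89 ± 0.86 in rpS6P-/- lysates (adjusted p = 0.636), both with overlap.

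Other cell types differed between the regions in the same libraries. In rpS6P-/- heavy fractions, the summed level of 10 choroid plexus markers was 62.1 to 68.0 CPM in the Acb and 19.2 to 20.7 in the DS, that of 13 microglial markers 410.0 to 441.7 and 257.9 to 373.2, and that of 12 astrocytic markers 2341 to 2590 and 1047 to 1882. These 3 lists did not overlap between regions and were higher in the Acb. The 16 markers of pericytes and smooth muscle, which wrap the endothelium, lay at 51.4 to 60.5 CPM in the Acb and 50.1 to 61.0 in the DS. Some lists of endothelial genes were also higher in the Acb without overlap. They were junction and adhesion genes (347.4 to 404.9 and 307.0 to 323.4 CPM), receptors (499.6 to 554.8 and 411.1 to 491.6) and other markers (812.0 to 858.6 and 637.2 to 794.4). Many genes of these lists are also expressed by neurons and glia, so the sums are not those of endothelial cells alone. Among the receptors, S1pr1 alone stood at 163.2 ± 17.1 CPM in these Acb fractions, and Kdr at 0.834 ± 0.248. Ligands, barrier carriers and transcription factors overlapped, and the 10 members summed lay lower in the Acb (13.15 to 15.18 and 15.24 to 23.88). The part of these lists in the result for Esam was not tested.

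The remaining region comparisons called no member with edgeR. These were 9 members in wild-type heavy fractions (8.15% of all genes called), 9 in wild-type lysates (12.7%) and 9 in rpS6P-/- lysates (10.9%). In that order, 0, 2 and 1 of them had an unadjusted p under 0.05, and DESeq2 called 0, 1 and 0. The 1 called was Pecam1 in wild-type lysates, with 37, 46 and 10 reads in the Acb and 4, 4 and 0 in the DS. Its groups lay apart (2.31 ± 1.28 and 0.164 ± 0.145 CPM), with a log2 difference of 3.74 ± 1.37 and an adjusted p of 0.0672 in edgeR and 0.00759 in DESeq2. In the same lysates Ecscr stood at 3.06 ± 1.73 CPM in the Acb and 0.883 ± 0.177 in the DS without overlap, which is given without a test. In heavy fractions, which were not used to choose Ecscr, its log2 difference between Acb and DS was 0.57 ± 0.68 in wild-type mice (adjusted p = 0.707) and -0.33 ± 0.90 in rpS6P-/- mice (adjusted p = 0.845). The heavy Acb fractions came from the pools of the lysates that chose Ecscr, so these tests are not independent of that choice.

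Whether Ecscr varied with the other members from library to library was asked of the 12 heavy polysomal libraries, as deviations of log2 CPM from the mean of each group. Across 9 pairs, each with an exact permutation test within groups (1296 arrangements, two-sided), 0 passed the threshold after Benjamini-Hochberg adjustment. With Pecam1, Flt1, Tek, Cdh5, Slco1a4, Ly6c1 and Kdr, Pearson's r lay between -0.472 (Tek) and 0.152 (Cdh5).

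The largest coefficients were negative. With Cldn5, Pearson's r was -0.966 and Spearman's rho -0.930 over 12 libraries, with exact permutation p of 0.0123 and 0.0139 and adjusted p of 0.111 and 0.125. Leaving out the 2 libraries in which Cldn5 lay farthest from its median gave r = -0.930. In heavy DS fractions of wild-type mice Ecscr had 38, 15 and 23 reads where Cldn5 had 29, 70 and 96, and in those of rpS6P-/- mice Ecscr had 31, 4 and 50 where Cldn5 had 18, 92 and 25. Among the 12269 genes compared, each averaging 50 reads or more in these libraries, Cldn5 was the one least like Ecscr by this measure. With the 6 DS lysates added, r was -0.550 over 18 libraries (exact permutation p = 0.203, adjusted p = 0.665), and without 2 of these it was -0.304.

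With Esam, r was -0.710 and rho -0.643 over the 12 heavy libraries (exact permutation p = 0.0370 and 0.0664, adjusted p = 0.167 and 0.299), and without the 2 libraries farthest from its median r was -0.699. Against the summed level of the other 9, r was -0.551. The 5 genes most like Ecscr by the same measure were Nr2c1 (0.947), Racgap1 (0.921), Parg (0.917), Ralyl (0.915) and Kctd4 (0.913), and none of these is in the endothelial lists. For the sum of the other 9, the 10 most like genes ran from Slc9a5 (0.951), Sumf2 (0.934) and Qpct (0.933) through Sparc, Pdgfrb, Plcg1, Gpaa1, Olfr856-ps1 and Fkbp9 to Fam134c (0.885). None of these is in the endothelial lists either, but Pdgfrb (0.919) is in the list of pericyte and smooth muscle markers. As the highest of 12269 and 12265 coefficients over 12 libraries, these are given as a description.

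**Figure D5:**
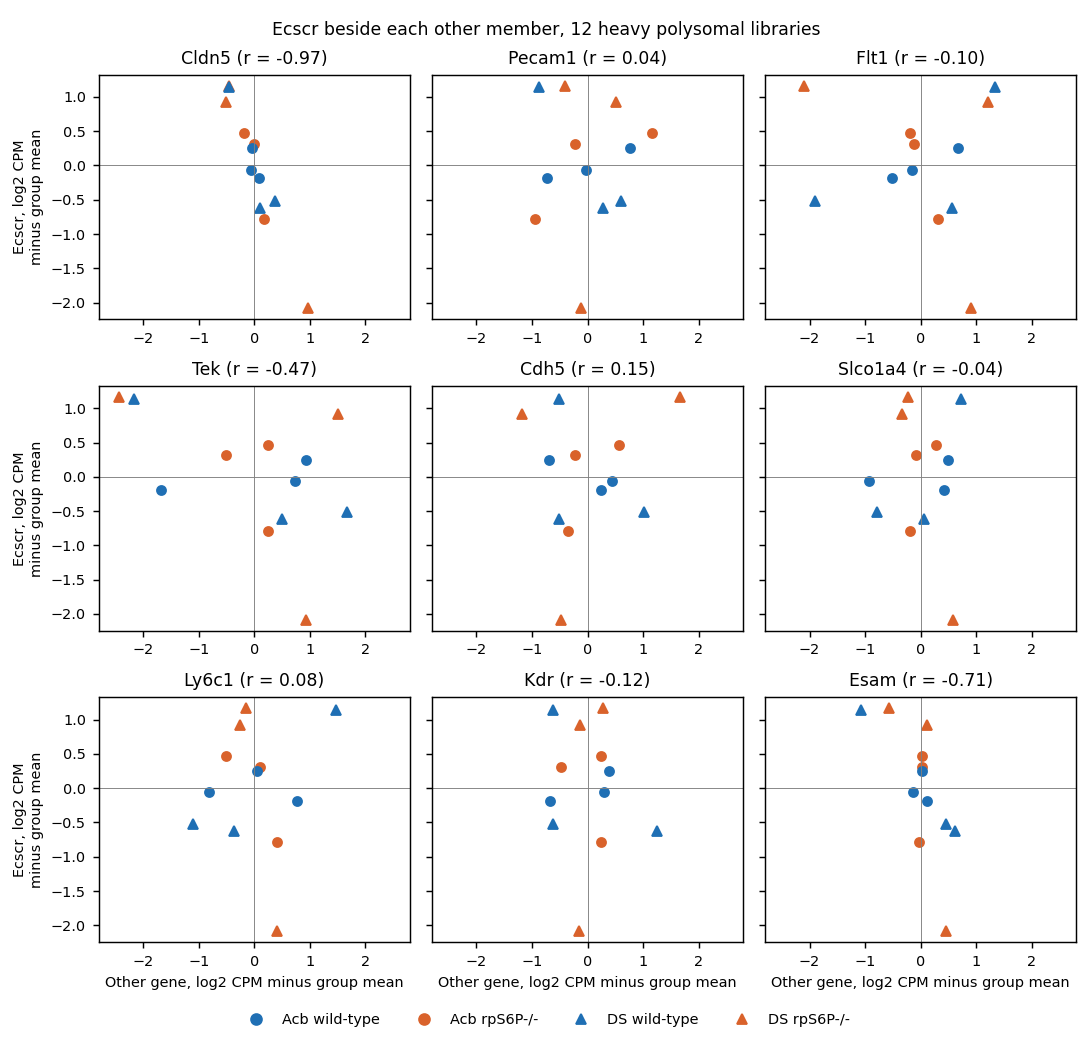
Deviation of Ecscr from its group mean (vertical axis, log2 CPM) beside that of each other member (horizontal axis, log2 CPM) in the 12 heavy polysomal libraries, circles for the Acb and triangles for the DS. Cldn5 falls along a descending line (r = -0.97), Esam less closely (r = -0.71), and the others scatter.

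A wider set of 121 endothelial genes outside the 10 members, drawn from 6 lists of junction and adhesion genes, receptors, ligands, barrier carriers, transcription factors and other brain endothelial markers, gave no call between genotypes either. edgeR called 0 of 120 tested in heavy Acb fractions, 0 of 118 in Acb lysates, 0 of 118 in heavy DS fractions and 0 of 116 in DS lysates. Their median log2 differences were -0.02, -0.07, 0.14 and 0.02 in that order. Unadjusted p under 0.05 were reached by 15, 2, 4 and 8 of them, and the lowest adjusted p was 0.117, in heavy Acb fractions. DESeq2 called 2 of the 44 to which it gave an adjusted p in heavy Acb fractions (Slc38a3, an amino acid carrier, by 0.58 and Spock2, a proteoglycan, by 0.54 on the log2 scale, both higher in rpS6P-/- mice, adjusted p = 0.0409 and 0.0301), where it called 951 of all 16227 genes, and 0 in the other 3 comparisons. In the same heavy Acb fractions 21.7% of all genes had an unadjusted p under 0.05, and 11 of 12 astrocytic markers were positive (median 0.27, 0 called by edgeR), whose part in these values was not tested. For the interaction of genotype and fraction edgeR called 0 of 121 in each region (6 and 7 at an unadjusted p under 0.05), and DESeq2 0.

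Between fractions some of these genes were called, in shares of 19.0% (wild-type Acb), 11% (rpS6P-/- Acb), 15.7% (wild-type DS) and 16.7% (rpS6P-/- DS), each below that of all genes. In wild-type Acb 10 of 121 were higher and 13 lower in heavy fractions, in rpS6P-/- Acb 3 and 10 of 118, in wild-type DS 5 and 13 of 115, and in rpS6P-/- DS 8 and 12 of 120. Bsg (basigin, a chaperone of lactate carriers that is abundant at the barrier) was higher in heavy fractions at 330.2 ± 29.0 CPM against 171.2 ± 16.3 in wild-type Acb (log2 difference 0.90 ± 0.14, adjusted p = 3.02e-05), and the call stood with each library left out. Itm2a, a membrane protein of the BRICHOS family, was higher in rpS6P-/- Acb (1.34 ± 0.23, adjusted p = 0.000194) and wild-type DS (1.20 ± 0.31, adjusted p = 0.00425). S1pr1, the sphingosine 1-phosphate receptor, was higher by 0.66 ± 0.16 in wild-type DS (adjusted p = 0.00243). In rpS6P-/- Acb its value was 0.47 ± 0.16 (adjusted p = 0.0435), a call lost without any of 5 of the 6 libraries (up to 0.17, without heavy replicate 2) and with the replicate block (0.0583).

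Vegfb and Slfn5 recurred among the genes that fell most in heavy fractions. Vegfb, a ligand of Flt1, fell by 1.73 in wild-type Acb, by 2.05 in rpS6P-/- Acb and by 1.44 in wild-type DS on the log2 scale (adjusted p from 5.44e-06 to 8.14e-05). Slfn5, of the Schlafen family, fell by 1.72, 1.94 and 1.51 in the same comparisons and, in rpS6P-/- DS, by 1.66, and its call in wild-type DS was lost without heavy replicate 3 (adjusted p = 0.0606) or lysate replicate 2 (0.0771). Many of these genes are also expressed by neurons and glia, so their values are not those of endothelial cells alone.

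The calls of the other named genes between fractions were each lost with at least 1 library left out. Cav1, the coat protein of caveolae, was higher in heavy fractions of wild-type Acb (1.06 ± 0.33, adjusted p = 0.0183), but not past the threshold without heavy replicate 1 (0.0826) or 3 (0.109). Ndp, the Norrie ligand of Fzd4, stood at 0.99 ± 0.34 in wild-type Acb (adjusted p = 0.0323, up to 0.208 without heavy replicate 1) and at 1.28 ± 0.38 in rpS6P-/- DS (0.00704, up to 0.126 without heavy replicate 2). In rpS6P-/- DS, Eng, a co-receptor for TGF-beta ligands, stood at 1.78 ± 0.70 (adjusted p = 0.0498, up to 0.364 without heavy replicate 3) and F11r, which codes for the junctional molecule JAM-A, at 1.28 ± 0.44 (0.0217, up to 0.117 without heavy replicate 3). Lower there were the scaffold gene Ahnak (-1.37 ± 0.38, adjusted p = 0.00352) and the Notch ligand Jag2 (-1.23 ± 0.48, adjusted p = 0.0443). Ahnak reached only -0.91 (0.148) without lysate replicate 1 and -0.50 (0.374) with the length trend removed, and for Jag2 the adjusted p went up to 0.173 without lysate replicate 2.

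Between regions, the endothelial lists held calls in both directions. In wild-type heavy fractions 9 of 120 were higher and 3 lower in the Acb, in rpS6P-/- heavy fractions 12 and 9 of 121, in wild-type lysates 14 and 4 of 118, and in rpS6P-/- lysates 8 and 4 of 115. These are 10%, 17.4%, 15.3% and 10.4% of the genes tested, beside 8.15%, 18.6%, 12.7% and 10.9% of all genes. Acvrl1 (ALK1, a receptor of endothelial cells for bone morphogenetic proteins) was lower in the Acb in all 4, with log2 differences of -2.87 ± 0.33, -2.60 ± 0.28, -2.36 ± 0.31 and -3.06 ± 0.40 (adjusted p at most 2.77e-05), and kept its calls with each library left out. In wild-type heavy fractions its levels were 2.91 ± 1.0 CPM in the Acb and 21.1 ± 5.83 in the DS. Cd34, a sialomucin of endothelium and progenitor cells, was lower in the Acb in wild-type heavy fractions (-1.75 ± 0.27, adjusted p = 0.000522) and wild-type lysates (-1.44 ± 0.31), and Cxcl12, a chemokine, in rpS6P-/- heavy fractions (-1.43 ± 0.26, adjusted p = 0.000602), and these calls stood with each library left out. The calls of Cd34 in rpS6P-/- lysates (-1.08 ± 0.34, adjusted p = 0.0288, up to 0.229 without DS replicate 2) and of Cxcl12 in wild-type heavy fractions (-1.04 ± 0.25, 0.0144, up to 0.0739 without Acb replicate 2) were lost with single libraries left out. Eng in rpS6P-/- heavy fractions stood at -1.65 ± 0.54 (adjusted p = 0.0376), which was lost without any of 5 of the 6 libraries (up to 0.216, without DS replicate 3). Of the 19 junction and adhesion genes, which include the 4 members of that role, 13 had positive values in these fractions (median 0.36).

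Higher in the Acb was Pltp, which codes for the phospholipid transfer protein, in rpS6P-/- heavy fractions (1.51 ± 0.31, adjusted p = 0.00167) and wild-type lysates (1.77 ± 0.39, adjusted p = 0.00118). In wild-type heavy fractions (1.52 ± 0.45, adjusted p = 0.0466, up to 0.212 without Acb replicate 2) and rpS6P-/- lysates (1.18 ± 0.39, 0.041, up to 0.189 without DS replicate 1) its calls were lost without any of 5 libraries. Jam2, a junctional molecule, was higher in wild-type heavy fractions (1.41 ± 0.22, adjusted p = 0.000616), whereas its 0.84 ± 0.25 in rpS6P-/- lysates (adjusted p = 0.0234) came to 0.49 (0.326) without Acb replicate 1. Calcrl, the receptor of adrenomedullin, was higher in rpS6P-/- heavy fractions (1.57 ± 0.40, adjusted p = 0.00821, and 0.0532 with all 24 libraries in one fit) and Itm2a in wild-type lysates (1.21 ± 0.30, adjusted p = 0.00398). Ahnak in wild-type lysates (1.15 ± 0.37, adjusted p = 0.0317) went up to 0.148 without Acb replicate 2. Pdgfb, the ligand that recruits pericytes, was lower in wild-type Acb lysates (-1.23 ± 0.30, adjusted p = 0.00357). Angpt1, the ligand of Tek, stood at -1.79 ± 0.60 in rpS6P-/- lysates (adjusted p = 0.0465), a call lost without any of 5 of the 6 libraries (up to 0.173, without DS replicate 1).

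Markers of the tissue were plain in all libraries, with 12 genes of medium spiny neurons summing to between 4759 and 7951 CPM, 11 oligodendrocyte genes to between 2889 and 6071 and the 10 endothelial members to between 11.9 and 30.6. In the Acb lysates, pericyte and smooth muscle markers lay at 44.0 to 68.2 CPM in wild-type and 52.0 to 59.2 in rpS6P-/- mice, which overlap, beside Ecscr at 0 in the latter. Of 11 blood cell genes, the 6 for haemoglobin were listed at 0 in every library, for which no cause was tested. The other 5 summed to 4.20 to 7.58 CPM in wild-type and 0.412 to 5.20 CPM in rpS6P-/- Acb lysates, again with overlap, and their part in the values of Ecscr was not tested. The knockin leaves the Rps6 transcript in place, so counts per gene could not serve to check the genotypes.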

How the data were processed

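The authors aligned strand-specific poly-A reads of 50 cycles to mm10 with TopHat2 2.0.13 and Bowtie2 2.2.3, counted them per gene with HTSeq 0.6.1p1 (union mode, opposite strand) and deposited the raw counts of 24079 genes in 24 libraries. Because of contamination by E. coli sequences, libraries were sequenced in more than one run, and sources give different numbers of mice per pool.

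The members and the gene lists were chosen with earlier results of these data known. A gene entered a comparison with 15 reads or more summed over its libraries, and edgeR 4.0.16 (TMM, quasi-likelihood F test, R 4.3.3) was fitted to the libraries compared, with Benjamini-Hochberg adjusted p under 0.05 over all genes as the threshold. SEs are the log2 fold change divided by the root of F. Levels are CPM with TMM over all 24 libraries, log values use a prior count of 2, and floors (3 reads) cover counting error only. Alternatives were DESeq2 1.42.0 or its size factors, filterByExpr, no filter beyond 1 read, a loess trend on transcript length removed (span 0.5), a replicate block, all libraries in one fit and each replicate left out. Beyond the members, the text names, from the endothelial lists, up to 3 called genes per direction, those of greatest fold change among genes averaging 50 reads or more, and the genes most like Ecscr (5) or the other 9 summed (10). Some genes that met this rule are not reported here. The tests were checked on simulated data. Positions came from RefSeq GRCm38.p6 and lengths and sequences from GENCODE M21, and tables were made with pandas 2.3.3 in Python 3.11.15 and plots with matplotlib 3.10.9.

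Heavy fraction and lysate of the same number were taken as paired, by their sample titles and because the lysate is the input of the gradient per the methods. Correlations of their deviations from group means lay between -0.0376 and 0.0743 over 12 pairs, 0 above 0.1. The main tests between fractions and of the interaction did not use this pairing, which entered only through the replicate block.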

Additional observations from a re-analysis of the deposited data

Results flagged for a closer look

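Ecscr differed between regions in opposite directions in the lysates of the 2 genotypes. In wild-type lysates all 3 Acb libraries lay above all 3 DS libraries, with the Acb mean higher by 2.17 CPM, and in rpS6P-/- lysates all 3 Acb libraries lay below, with a difference between the means of Acb and DS of -0.998 CPM. This difference was not tested, since Ecscr was chosen on the Acb lysates.

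Ly6c1 differed between regions in opposite directions in the fractions of rpS6P-/- mice. In heavy fractions the Acb mean minus the DS mean was -1.44 CPM (35, 65 and 22 reads against 41, 116 and 60), and in lysates it was 2.60 CPM (49, 38 and 54 reads against 28, 38 and 26), with no overlap in CPM in either. This difference was not tested, and the counts of Ly6c1 are uncertain because of the sequence it shares with Ly6c2.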

How the results depend on the processing

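The 0 calls among members in the 4 genotype comparisons and in both interactions of genotype and fraction stayed 0 under every alternative that gave a value. For DESeq2 there was none in 4 comparisons (genotype in heavy Acb fractions, heavy DS fractions and DS lysates, and the interaction in the Acb), where its filter left all members without an adjusted p. Between heavy fractions and lysates of rpS6P-/- Acb the count of 1 became 0 with filterByExpr, with the replicate block and with all 24 libraries in one fit, became 2 with DESeq2 or the length trend removed, and ran from 0 to 1 with replicates left out. In rpS6P-/- DS that count, 0, ran from 0 to 1 with replicates left out. Between regions the count of 1 in rpS6P-/- heavy fractions became 0 with all libraries in one fit and ran from 0 to 1 with replicates left out, the 0 in wild-type lysates became 1 with filterByExpr, DESeq2 or all libraries in one fit (Pecam1 each time), and the 0 in rpS6P-/- lysates ran from 0 to 1 with replicates left out. The replicate block changed no other call of a member. The causes were not tested.

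Ecscr changed sign in comparisons where it was not called. Between genotypes its log2 difference in DS lysates was -0.36 with the replicate block and ran from -0.30 to 0.71 with replicates left out, and in heavy DS fractions it ran from -0.82 to 0.53. Between fractions in rpS6P-/- DS it was -0.072 with the length trend removed and ran from -0.065 to 1.01. Between regions in rpS6P-/- heavy fractions it was 0.054 with the length trend removed and 0.072 with the replicate block, and ran from -0.87 to 0.18. The interaction in the DS ran from -1.32 to 0.49. The sign turned without replicate 2 of rpS6P-/- (0.22) or replicate 1 of wild-type (0.53) heavy DS fractions, without replicate 2 (-0.30) or 3 (-0.15) of rpS6P-/- DS lysates, without replicate 3 of rpS6P-/- heavy DS fractions (-0.026 between fractions, 0.18 between regions) or replicate 1 of the lysates (-0.065 between fractions), and for the interaction without replicate 1 of wild-type (0.21) or 2 of rpS6P-/- (0.49). In the pairs with Ecscr, 0 of 9 passed under every alternative, the lowest adjusted p lying between 0.0903 and 0.665.

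Levels moved beyond 1 SD only for the sum of the other 9, to 14.6 CPM in rpS6P-/- heavy Acb fractions with CPM by assigned reads. Scaled by assigned reads without Bc1, a short RNA abundant in lysates, it moved to 14.8 there, to 23.6 in rpS6P-/- Acb lysates and to 15.8 in wild-type heavy DS fractions. With 9280589 to 34703044 reads a library and members at no more than 251 reads in any, changes smaller than the SEs given could not be detected. Changes larger than the SE could also go uncalled, as for Ecscr between genotypes in heavy Acb fractions (-1.19 ± 0.50, edgeR's adjusted p = 0.184).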
